A study of Mus musculus with 16 samples.

Results

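The interferon response genes described here are a list of 9 mouse genes chosen by name, of which 8 were matched by symbol in a table of 13101 genes: Ifngr1, Ifnar1, Stat2, Irf9, Irf1, Irf7, Isg15 and Ifit3. The remaining gene on the list, Ifit1, was not analysed here. Transcripts were measured by bulk RNA sequencing of polyA-enriched libraries in 16 samples, as 8 groups of 2. The Tex10-deficient mice carried 1 floxed and 1 null Tex10 allele with Stra8iCre (Tex10f/-; Stra8iCre), and the other mice were wild type. All were male C57BL/6J mice aged 8 weeks, and each genotype gave spermatogonia, MI spermatocytes, MII spermatocytes and spermatids from the testis. The Stra8 promoter that drives this Cre recombinase is active in differentiating spermatogonia, so somatic cells of these testes are not its intended targets. By this genotype the somatic cells still carry the null allele, so they are not wild type for Tex10. The sources used here do not give the method of separating cells, nor whether each library had its own animal. P-values measure the spread between libraries only, and that spread may be technical.

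Interferons are secreted proteins, and those of type I are released by cells that sense viral nucleic acid. Type I interferons bind a receptor of Ifnar1 and Ifnar2, and interferon gamma binds a receptor of Ifngr1 and Ifngr2. Janus kinases on these receptors phosphorylate STAT proteins. Stat2 and Irf9 act in the complex that binds the interferon-stimulated response element, and interferon gamma acts through the gamma-activated sequence. Irf1 and Irf7 are transcription factors that are themselves induced, and Isg15 and Ifit3 are antiviral effectors at the end of the pathway. In the testis, macrophages, Leydig cells and Sertoli cells are known for interferon responses, and germ cells for weak ones.

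The 250 bases before the RefSeq start of Isg15, Ifit3, Stat2 and Irf1 are printed because they are the members with a whole match to either element in this window (build GRCm38.p6, 5′ to 3′ on the strand of the gene). Capitals mark the interferon-stimulated response element, searched as GAAA, any 2 bases and GAAA, or on the other strand as TTTC, any 2 bases and TTTC, and in Irf1 they mark TTCNNNGAA, the gamma-activated sequence, which reads the same on both strands.
Isg15, chr4:156200819-156201068, minus strand: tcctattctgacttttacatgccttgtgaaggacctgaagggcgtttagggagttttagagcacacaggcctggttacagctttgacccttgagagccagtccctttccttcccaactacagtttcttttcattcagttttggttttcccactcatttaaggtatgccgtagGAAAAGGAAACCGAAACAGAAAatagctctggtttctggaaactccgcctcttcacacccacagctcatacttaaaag
Ifit3, chr19:34583279-34583528, plus strand: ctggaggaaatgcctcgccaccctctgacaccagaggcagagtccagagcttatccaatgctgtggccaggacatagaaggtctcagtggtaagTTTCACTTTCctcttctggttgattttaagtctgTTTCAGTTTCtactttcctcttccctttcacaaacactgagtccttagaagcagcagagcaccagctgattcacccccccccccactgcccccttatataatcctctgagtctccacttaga
Stat2, chr10:128270248-128270497, plus strand: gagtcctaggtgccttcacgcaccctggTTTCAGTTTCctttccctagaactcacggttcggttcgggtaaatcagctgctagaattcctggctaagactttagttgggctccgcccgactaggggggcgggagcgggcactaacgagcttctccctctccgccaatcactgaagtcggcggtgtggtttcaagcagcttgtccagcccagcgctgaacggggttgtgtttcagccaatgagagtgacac
Irf1, chr11:53769764-53770013, plus strand: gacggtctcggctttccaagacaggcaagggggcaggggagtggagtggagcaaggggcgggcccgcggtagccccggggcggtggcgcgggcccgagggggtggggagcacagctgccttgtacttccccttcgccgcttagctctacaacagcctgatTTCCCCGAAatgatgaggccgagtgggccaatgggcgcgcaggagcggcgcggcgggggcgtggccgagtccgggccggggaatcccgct
Isg15 held 3 overlapping response elements between bases -78 and -57 from its start, Ifit3 held 2 and Stat2 held 1, the last at bases -222 to -213. Irf1 held 1 gamma-activated sequence at bases -90 to -82. In windows of 250 bases before and 50 bases after the start, 3 of 8 members had a response element, as did 1079 of 27025 mouse genes. By window, it was in 3 of 10 member windows and in 3.44% of all 32851 mouse promoter windows. A gamma-activated sequence was in 2 of 8 members, with Ifnar1 as the other gene, and in 2582 of 27025 genes. By window, it was in 2 of 10 member windows and in 8.3% of all windows. For Irf7, Irf9 and Ifngr1 these letters were not in the window. Of these, Irf7 and both starts of Irf9 had an annotated exon within the bases before the start. Both Irf9 windows began inside the gene span given below, so the bases before that span were not searched. A match is a description of the sequence and not a site of binding.

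Levels are given as FPKM, fragments scaled by transcript length and library, so they can be set side by side between genes. Log2 changes were estimated with limma on log2(FPKM + 1), a scale that understates the change of low genes. A gene counts as called when its p, adjusted by Benjamini-Hochberg over 13099 tested genes, is under 0.05. Between 10044 and 12394 genes per library reached 1 FPKM. Read numbers are unknown, so no counting intervals are given. Tex10 itself was lower in 8 of 8 Tex10-deficient libraries than in both wild-type libraries of its fraction, at 7.29 to 34.8 FPKM in Tex10-deficient and 13.8 to 116 FPKM in wild-type libraries, although the exons deleted are not named and the value covers the whole gene. By genotype within a cell type, Tex10 was called only in MI spermatocytes (limma adjusted p = 0.012). It was not called in spermatogonia (limma adjusted p = 0.10), MII spermatocytes (0.095) or spermatids (0.23). A gene that is not called may thus still have changed. Title and cell type field conflict for 6 of the 8 Tex10-deficient libraries. Groups follow the titles: by rank correlation, each of the 8 had its nearest wild-type library within the cell type that its title gives. Grouping by that field instead reversed 8 genotype changes of members, among the changes without overlap between genotypes that were checked for it. They are given with the alternatives at the end.

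Markers of the fractions bear on every result below. Summed levels of 7 spermatogonia markers were 159 to 223 FPKM in Tex10-deficient and 235 to 314 FPKM in wild-type spermatogonia. In the other fractions they were at most 61.4 FPKM. In spermatogonia, 8 meiotic prophase markers summed to 219 to 411 FPKM in Tex10-deficient and 326 to 365 FPKM in wild-type libraries. MI spermatocytes had 715 to 780 FPKM of them in Tex10-deficient and 818 to 1072 FPKM in wild-type libraries. In spermatids the sums were 441 to 479 FPKM and 477 to 532 FPKM, in the same order. The MII libraries had 26.2 to 39.3 FPKM in Tex10-deficient and 62.3 to 169 FPKM in wild-type mice, without overlap. The 6 late spermatocyte markers summed to 1446 to 2566 FPKM in Tex10-deficient and 1703 to 1862 FPKM in wild-type MI spermatocytes. They were not particular to MI spermatocytes, with 4868 to 5056 FPKM in Tex10-deficient and 5000 to 5401 FPKM in wild-type spermatids. The MII libraries went against their label: the same markers summed to 86.3 to 179 FPKM in Tex10-deficient and 236 to 653 FPKM in wild-type MII libraries. In these, 8 Leydig cell markers summed to 1269 to 1468 FPKM in Tex10-deficient and 917 to 1402 FPKM in wild-type libraries, with Insl3, a Leydig cell hormone, as the most abundant. All 8 were above 0 in every library. These libraries are called the MII fraction below. A set of 3 Sertoli cell markers summed to 108 to 150 FPKM in the Tex10-deficient and 113 to 134 FPKM in the wild-type MII fraction, and to at most 20.1 FPKM in spermatogonia and MI spermatocytes. A set of 4 myoid and endothelial markers summed to 99.0 to 123 FPKM in the Tex10-deficient and 71.3 to 119 FPKM in the wild-type MII fraction. In spermatogonia these 4 summed to 49.3 to 61.5 FPKM in Tex10-deficient and 38.6 to 74.1 FPKM in wild-type libraries, and in MI spermatocytes and spermatids to at most 9.75 FPKM. The 7 spermatid markers summed to 5800 to 6777 FPKM in Tex10-deficient and 10190 to 12440 FPKM in wild-type spermatids, without overlap. In the MII fraction they summed to 316 to 591 FPKM in Tex10-deficient and 698 to 746 FPKM in wild-type libraries.

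Immune cell markers stood high in the same 2 fractions. The 14 macrophage and general immune markers summed to 321 to 456 FPKM in Tex10-deficient and 415 to 666 FPKM in wild-type spermatogonia, and to 256 to 366 FPKM and 362 to 702 FPKM in the Tex10-deficient and wild-type MII fraction. In MI spermatocytes they summed to 17.3 to 19.7 FPKM in Tex10-deficient and 11.4 to 11.8 FPKM in wild-type libraries. Most of their sum in spermatids came from Aif1, and the other 13 summed to 14.7 to 34.8 FPKM in Tex10-deficient and 7.17 to 7.21 FPKM in wild-type spermatids, a sum taken after the values were seen. Of 13 T and NK lymphocyte markers, 6 were matched. They summed to 142 and 109 FPKM in Tex10-deficient and 100.2 and 31.2 FPKM in wild-type spermatogonia, and to at most 3.14 FPKM elsewhere. The part of these cells in the levels of the interferon genes was not tested. In bulk samples, fewer cells of a type and less RNA per cell cannot be told apart.

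**Figure D1:**
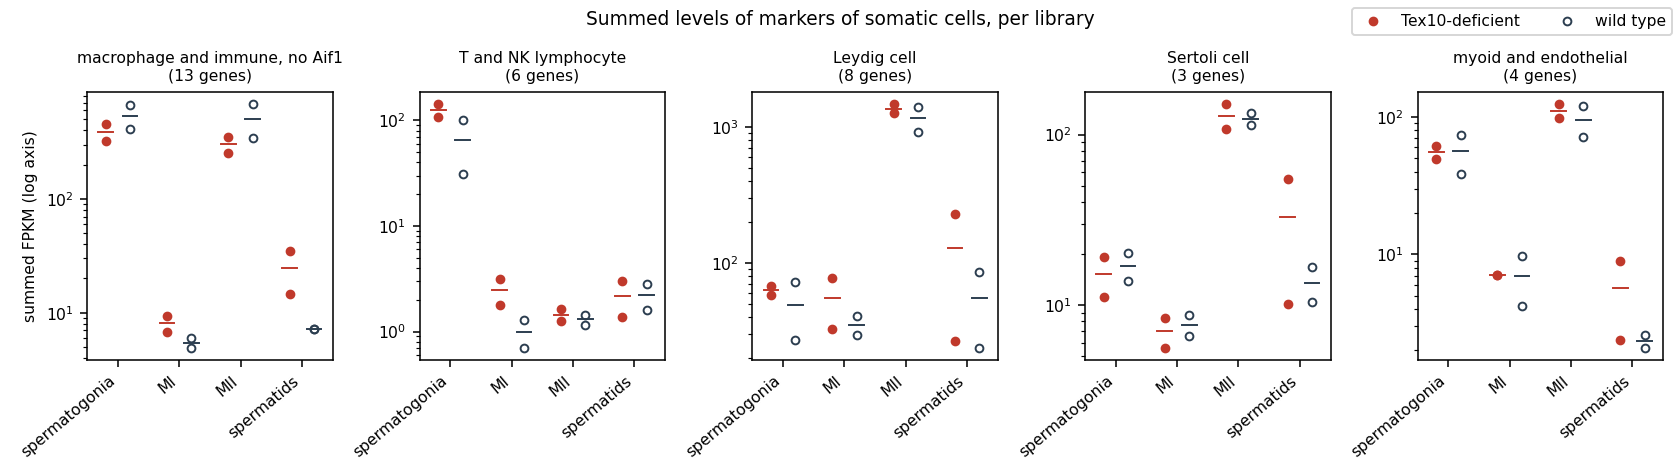
Summed FPKM (log axis) of 5 lists of somatic cell markers in each library, by fraction, with Tex10-deficient (filled) left of wild type (open) and bars at the mean of 2 libraries. Leydig cell sums were highest in the MII fraction, at 1269 to 1468 FPKM in Tex10-deficient and 917 to 1402 FPKM in wild-type libraries, and lymphocyte sums were highest in spermatogonia.

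Within the wild type, the 8 interferon response genes stood high in spermatogonia and in the MII fraction and low in MI spermatocytes and spermatids. In Tex10-deficient mice, 7 of 8 reached 1 FPKM in both libraries of spermatogonia, 3 in MI spermatocytes, 8 in the MII fraction and 2 in spermatids. In wild-type mice, the counts were 7 in spermatogonia, 4 in MI spermatocytes, 8 in the MII fraction and 1 in spermatids. Values follow by role, receptors first.

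Ifngr1 (XLOC_001368, chromosome 10, 19591949 to 19610229, plus strand, mm10) encodes the ligand-binding chain of the interferon gamma receptor. It had 48.7 and 38.9 FPKM in Tex10-deficient spermatogonia, against 24.1 and 16.6 FPKM in wild-type spermatogonia. In MI spermatocytes it had 3.23 and 3.91 FPKM in Tex10-deficient libraries, against 9.24 and 5.10 FPKM in wild-type libraries. The genotypes did not overlap in either cell type, and the higher group was Tex10-deficient in spermatogonia and wild type in MI spermatocytes. The MII fraction had 40.9 and 44.6 FPKM in Tex10-deficient libraries, against 51.6 and 28.2 FPKM in wild-type libraries. Spermatids had 2.50 and 1.77 FPKM in Tex10-deficient libraries, against 2.28 and 3.01 FPKM in wild-type libraries, so the genotypes overlapped in both.

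Ifnar1 (XLOC_008077, chromosome 16, 91485238 to 91507441, plus strand) encodes a chain of the type I interferon receptor. It had 13.3 and 13.2 FPKM in Tex10-deficient spermatogonia, against 14.5 and 14.2 FPKM in wild-type spermatogonia. MI spermatocytes had 7.15 and 6.39 FPKM in Tex10-deficient libraries, against 5.51 and 5.15 FPKM in wild-type libraries. It was the only member above 5 FPKM in every MI library, and the genotypes did not overlap in either cell type. In the MII fraction it had 11.2 and 14.5 FPKM in Tex10-deficient libraries, against 13.7 and 8.99 FPKM in wild-type libraries. Spermatids had 1.05 and 1.56 FPKM in Tex10-deficient libraries, against 0.954 and 0.968 FPKM in wild-type libraries, a small difference without overlap.

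Stat2 (XLOC_001869, chromosome 10, 128270559 to 128292849, plus strand) encodes the transducer that is particular to the type I and type III receptors. It had 3.17 and 3.63 FPKM in Tex10-deficient spermatogonia, against 4.43 and 4.96 FPKM in wild-type spermatogonia. Its MI spermatocyte levels were 1.57 and 1.92 FPKM in Tex10-deficient libraries, against 2.72 and 2.80 FPKM in wild-type libraries. Both cell types had the Tex10-deficient libraries below the wild-type ones. Its MII fraction levels were 12.3 and 13.4 FPKM in Tex10-deficient libraries, against 10.9 and 10.1 FPKM in wild-type libraries, with the genotypes the other way round. Spermatids had 0.771 and 0.344 FPKM in Tex10-deficient libraries, against 0.588 and 0.713 FPKM in wild-type libraries.

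Irf9 (XLOC_006249, chromosome 14, 55603571 to 55610030, plus strand) encodes the DNA-binding partner of Stat2. It had 5.97 and 7.89 FPKM in Tex10-deficient spermatogonia, against 6.10 and 16.6 FPKM in wild-type spermatogonia. In MI spermatocytes it had 0.868 and 1.64 FPKM in Tex10-deficient libraries, against 0.875 and 0.480 FPKM in wild-type libraries. The genotypes overlapped in both, and wild-type spermatogonia replicate 2 stood above the other 3 spermatogonia libraries. The MII fraction had 14.5 and 14.6 FPKM in Tex10-deficient libraries, against 9.92 and 8.96 FPKM in wild-type libraries, without overlap. Spermatids had 0 and 0.430 FPKM in Tex10-deficient libraries, against 0.136 and 0.174 FPKM in wild-type libraries.

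Irf1 (XLOC_002672, chromosome 11, 53770014 to 53778374, plus strand) encodes a transcription factor that interferon gamma induces. It had 7.23 and 3.19 FPKM in Tex10-deficient spermatogonia, against 4.74 and 5.83 FPKM in wild-type spermatogonia. MI spermatocytes had 1.22 and 0.518 FPKM in Tex10-deficient libraries, against 1.88 and 0.845 FPKM in wild-type libraries. Replicates differed by more than the genotypes did. In the MII fraction it had 49.9 and 26.3 FPKM in Tex10-deficient libraries, against 42.0 and 19.6 FPKM in wild-type libraries. Spermatids had 0.0798 and 0.371 FPKM in Tex10-deficient libraries, against 0.236 and 0.101 FPKM in wild-type libraries, so Irf1 had no separation of genotypes in any fraction.

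Irf7 (XLOC_020428, chromosome 7, 141262706 to 141266481, minus strand) encodes the factor that amplifies type I interferon production. It had 8.34 and 7.02 FPKM in Tex10-deficient spermatogonia, against 2.45 and 4.41 FPKM in wild-type spermatogonia. Its MI spermatocyte levels were 0.589 and 0.278 FPKM in Tex10-deficient libraries, against 1.14 and 1.21 FPKM in wild-type libraries. As with Ifngr1, the higher group was Tex10-deficient in spermatogonia and wild type in MI spermatocytes. Its MII fraction levels were 25.4 and 11.8 FPKM in Tex10-deficient libraries, against 13.1 and 12.7 FPKM in wild-type libraries. Spermatids had 0 and 0.506 FPKM in Tex10-deficient libraries, and Irf7 was listed at 0 in both wild-type spermatid libraries.

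Isg15 (XLOC_015626, chromosome 4, 156199424 to 156200818, minus strand) encodes a ubiquitin-like protein that is joined to other proteins in infected cells. It had 0.389 and 6.60 FPKM in Tex10-deficient spermatogonia, against 2.02 and 4.08 FPKM in wild-type spermatogonia. In MI spermatocytes it had 0 and 0.356 FPKM in Tex10-deficient libraries and was listed at 0 in both wild-type libraries. The Tex10-deficient spermatogonia libraries lay on either side of the wild-type ones. The MII fraction had 18.1 and 11.9 FPKM in Tex10-deficient libraries, against 9.19 and 4.70 FPKM in wild-type libraries, without overlap. Spermatids were listed at 0 in both Tex10-deficient libraries, against 0.304 and 0 FPKM in wild-type libraries.

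Ifit3 (XLOC_010493, chromosome 19, 34583531 to 34588731, plus strand) encodes an antiviral protein of tetratricopeptide repeats. It had 1.43 and 1.29 FPKM in Tex10-deficient spermatogonia, against 0.598 and 1.21 FPKM in wild-type spermatogonia. MI spermatocytes had 0.128 and 0.0694 FPKM in Tex10-deficient libraries, against 0.111 and 0.0803 FPKM in wild-type libraries. It was the lowest of the 8 in spermatogonia by group mean in both genotypes. In the MII fraction it had 7.60 and 6.16 FPKM in Tex10-deficient libraries, against 2.29 and 3.78 FPKM in wild-type libraries, without overlap. Spermatids had 0 and 0.0741 FPKM in Tex10-deficient libraries, against 0.136 and 0 FPKM in wild-type libraries.

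**Figure D2:**
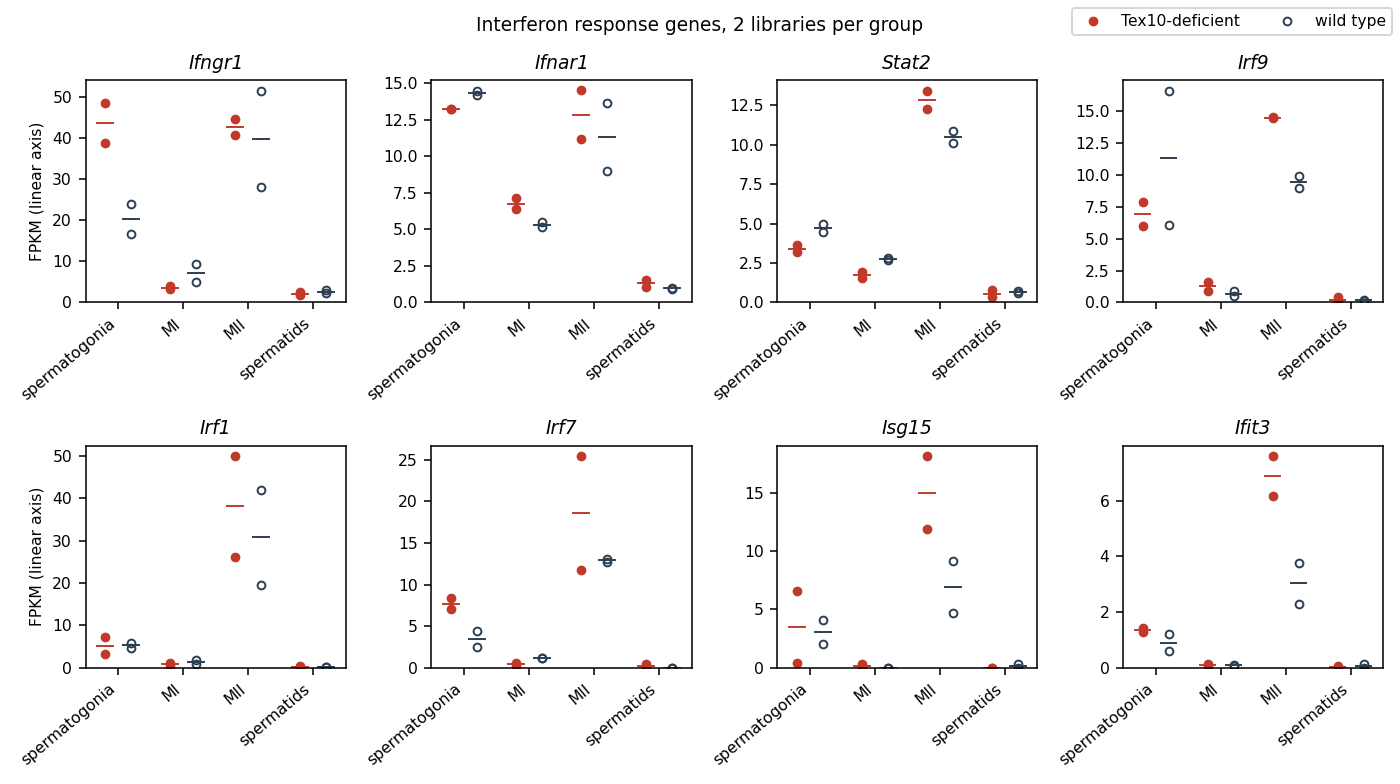
FPKM (linear axis, scaled per gene) of the 8 interferon response genes in each library, by fraction, with Tex10-deficient (filled) left of wild type (open) and bars at the mean of 2 libraries. Levels of Ifit3 in the MII fraction were 7.60 and 6.16 FPKM in Tex10-deficient and 2.29 and 3.78 FPKM in wild-type libraries, and levels were low in MI spermatocytes and spermatids.

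In the wild type, 7 of 8 members fell in MI spermatocytes relative to spermatogonia, where 25.7% of all genes were called lower, and 0 members were called higher, where 26.3% of all genes were. Irf9 had the steepest fall among members with a level in both groups, with a log2 change of -2.75 (SE 0.39; adjusted p = 7.0e-05 in limma). Ifngr1 fell by 1.41 (SE 0.35, adjusted p = 0.0038). Stat2 was not called (log2 change -0.60, SE 0.27, limma adjusted p = 0.076). The median of the 7 members other than Isg15, which was listed at 0 in MI spermatocytes, was -1.28, against -0.07 for all genes. Only 3 members were called without wild-type spermatogonia replicate 2, and only 2 without wild-type MI replicate 2, and 3 with a pseudocount of 5. Ifit3 and Irf7 also lost their calls without wild-type MI replicate 1. Both myoid and endothelial and immune marker sums were lower in MI spermatocytes as well, as given above, and their part in this fall was not tested.

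In the MII fraction, 8 of 8 members rose relative to MI spermatocytes, where 30.0% of all genes were called higher. Irf1 rose most among the 7 with a level in both groups (log2 change 3.69, SE 0.45, limma adjusted p = 2.5e-05) and Ifnar1 least (0.94, SE 0.28, adjusted p = 0.011). Ifnar1 lost its call without wild-type MI replicate 2 or wild-type MII replicate 1. The median of these 7 was 2.31, against 0.05 for all genes. Leydig, Sertoli, immune, and myoid and endothelial marker sums were all higher in the MII fraction than in MI spermatocytes, and their part in these rises was not tested.

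Spermatids of the wild type had 8 of 8 members lower than the MII fraction, where 35.0% of all genes were called lower. Irf1 had the widest log2 change at -4.67 (SE 0.45; adjusted p = 1.6e-06 in limma), and Ifit3 the narrowest among members with a level in both groups, at -1.90 (SE 0.28, adjusted p = 3.4e-05). The median without Irf7 was -2.80, against 0.11 for all genes. Leydig cell marker sums were 23.7 to 86.0 FPKM in wild-type spermatids, against 917 to 1402 FPKM in the wild-type MII fraction, and the part of somatic cells in these falls was not tested.

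Spermatogonia and the MII fraction held the top places in the order of levels of all 8 members. There 5 of 8 members were higher in the wild-type MII fraction than in wild-type spermatogonia, where 29.8% of all genes were called higher and 17.4% lower, and 0 members were lower. These 5 were Irf1 (log2 change 2.25, SE 0.45, limma adjusted p = 0.0011), Irf7 (1.69), Ifit3 (1.08), Stat2 (1.01) and Ifngr1 (0.90, adjusted p = 0.045). Irf9, Isg15 and Ifnar1 were not called, with log2 changes of -0.10 (SE 0.39), 0.96 (SE 0.59) and -0.34 (SE 0.28). The call of Ifngr1 was lost without any of 11 of the 16 libraries, left out singly, and that of Ifit3 without wild-type spermatogonia replicate 1 or wild-type MII replicate 2. The count was 3 without wild-type spermatogonia replicate 1, with a pseudocount of 0.1, with quantile normalization or with only these libraries in the fit. Quantile normalization moved the median log2 change of all genes in this comparison to -0.16, against 0.23 without it, and its calls split into 3145 higher and 3896 lower genes, against 3905 higher and 2273 lower.

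Compared with wild-type spermatogonia, wild-type spermatids had 8 of 8 members lower, where 35.1% of all genes were called lower. Irf9 fell by 3.28 (SE 0.39, limma adjusted p = 4.3e-06), and Ifit3 and Isg15 lost their calls without replicate 2 of either group. Compared with MI spermatocytes, spermatids had 4 of 8 members lower (Ifnar1, Stat2, Ifngr1 and Irf7), where 19.8% of all genes were called lower. Irf7 lost its call without any of the 4 libraries compared. The count was 2 without wild-type MI replicate 1 or wild-type spermatid replicate 1, and with a pseudocount of 5. By mean level, wild-type members were thus ordered with the MII fraction at the top for 6 and spermatogonia for 2 (Ifnar1 and Irf9), and the top pair was not distinguished by the test for Ifnar1, Irf9 and Isg15. Tex10-deficient members had the MII fraction at the top for 6 and spermatogonia for 2 (Ifngr1 and Ifnar1).

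In spermatogonia, the interferon gamma receptor chain Ifngr1 and the factor Irf7 had the widest gaps between genotypes, with the Tex10-deficient libraries higher. Of the 8 members, 0 were called (background 0.0153%), and 2 had an unadjusted p under 0.05, where 6.60% of all genes did. Ifngr1 had a log2 change of 1.09 (SE 0.35, unadjusted p = 0.0073, limma adjusted p = 0.47). Irf7 had a log2 change of 1.0 (SE 0.37, unadjusted p = 0.016, limma adjusted p = 0.59). Libraries did not overlap for 3 members that were higher (Ifngr1, Irf7 and Ifit3) and 2 that were lower (Stat2 and Ifnar1), against 16.9% and 19.6% of all genes. The log2 change was 0.33 (SE 0.28) for Ifit3, -0.37 (SE 0.27) for Stat2 and -0.10 (SE 0.28) for Ifnar1. Irf1, Irf9 and Isg15 overlapped, and the median of the 8 was -0.10, against -0.01 for all genes. Lymphocyte marker sums were 142 and 109 FPKM in Tex10-deficient and 100.2 and 31.2 FPKM in wild-type spermatogonia. Cdh5, 1 of 4 myoid and endothelial markers, had 11.1 and 4.51 FPKM in Tex10-deficient and 2.65 and 2.92 FPKM in wild-type spermatogonia, without overlap. The sum of these 4 overlapped, at 49.3 to 61.5 FPKM in Tex10-deficient and 38.6 to 74.1 FPKM in wild-type spermatogonia. Macrophage and general immune sums overlapped too, at 321 to 456 FPKM in Tex10-deficient and 415 to 666 FPKM in wild-type spermatogonia. Genes of this list went both ways, and those given here were named after their values were seen. Ptprc had 34.8 and 28.7 FPKM in Tex10-deficient and 16.9 and 13.2 FPKM in wild-type spermatogonia, without overlap. Cd74, Lyz2, Csf1r and Tyrobp were lower in Tex10-deficient spermatogonia without overlap. The part of lymphocytes, macrophages, myoid and endothelial cells in these values was not tested.

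Among MI spermatocytes, the direction of both of these genes was the opposite. Ifngr1 had a log2 change of -0.79 (SE 0.35, unadjusted p = 0.038, limma adjusted p = 0.82), and Irf7 one of -0.61 (SE 0.37, limma adjusted p = 1). Again 0 of 8 members were called (background 0.168%), and 1 had an unadjusted p under 0.05 (all genes 5.84%). Stat2 was lower without overlap as well (log2 change -0.46, SE 0.27), and Ifnar1 was higher (0.29, SE 0.28). That made 1 member higher and 3 lower without overlap, against 15.7% and 18.4% of all genes. Immune marker sums were 17.3 to 19.7 FPKM in these Tex10-deficient libraries and 11.4 to 11.8 FPKM in wild-type ones, and without Aif1 they were 6.76 to 9.45 FPKM and 4.93 to 5.95 FPKM in Tex10-deficient and wild-type MI spermatocytes. Their part in these values was not tested.

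In the MII fraction, the effectors Ifit3 and Isg15 were the members with the widest gaps, and all 8 members had a log2 change above 0, where 48.4% of all genes did. Of the 8, 0 were called (background 0.00763%), and 1 had an unadjusted p under 0.05, where 13.3% of all genes did. Ifit3 had a log2 change of 0.98 (SE 0.28, unadjusted p = 0.0032, limma adjusted p = 0.12). Isg15 had 1.04 (SE 0.59, limma adjusted p = 0.50), Irf9 had 0.57 (SE 0.39, adjusted p = 0.60) and Stat2 had 0.27 (SE 0.27, adjusted p = 0.76). These 4 were higher without overlap, and 0 were lower, against 17.3% and 18.0% of all genes. The median of the 8 was 0.36, against -0.02 for all genes. With quantile normalization Ifit3 was called (log2 change 1.31, limma adjusted p = 0.044). Over its alternatives the adjusted p ran from 0.035 to 0.75, and the lowest belongs to the grouping by the cell type field, where the change was reversed at -1.90.

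Markers of other cells were measured in the same MII libraries. Late spermatocyte markers summed to 86.3 to 179 FPKM in Tex10-deficient and 236 to 653 FPKM in wild-type libraries, with a median log2 change of -1.63 over 6 genes. Macrophage and general immune markers had a median of -0.90 over 14 genes, Leydig cell markers 0.20 over 8, Sertoli cell markers 0.16 over 3, and myoid and endothelial markers -0.03 over 4, with members from -0.64 to 0.63. The highest of these 4 was Cdh5, a cadherin of endothelial cells, at 71.1 and 84.4 FPKM in the Tex10-deficient and 56.4 and 43.6 FPKM in the wild-type MII fraction, without overlap. T and NK lymphocyte markers summed to 1.25 to 1.65 FPKM in Tex10-deficient and 1.16 to 1.45 FPKM in wild-type libraries, so the defining genes of these cells were near 0. The part of the other cells in the levels of Ifit3 and Isg15 was not tested.

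Spermatids had low levels of every member, and 0 of 8 were called (background 0.00%, that is 0 genes of the whole table), with 0 at an unadjusted p under 0.05 against 2.17% of all genes. Ifnar1 was the only member without overlap, higher in Tex10-deficient spermatids (log2 change 0.22, SE 0.28), where 11.7% of all genes were higher and 15.9% lower. The other log2 changes lay between -0.22 and 0.30. Tex10-deficient spermatid replicate 2 had a Leydig marker sum of 228 FPKM, against 26.5 FPKM in replicate 1, and it had the higher level of Irf7, Irf9, Irf1, Ifnar1 and Ifit3 and the lower level of Stat2 and Ifngr1. The part of these cells in the values was not tested.

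Averaged over the 4 cell types, 0 of 8 members were called (background 0.0992%), and 1 had an unadjusted p under 0.05, against 11.0% of all genes. This was Ifit3 (log2 change 0.32, SE 0.14, unadjusted p = 0.037, limma adjusted p = 0.42). An F test of whether the effect of genotype differed between cell types called 0 of 8 members (background 0.00%), and 1 had an unadjusted p under 0.05, against 6.49% of all genes. Ifngr1, with its opposite directions in spermatogonia and MI spermatocytes, had the smallest p (unadjusted p = 0.013, limma adjusted p = 0.65). Irf7 followed with an unadjusted p = 0.053 (limma adjusted p = 0.78).

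**Figure D3:**
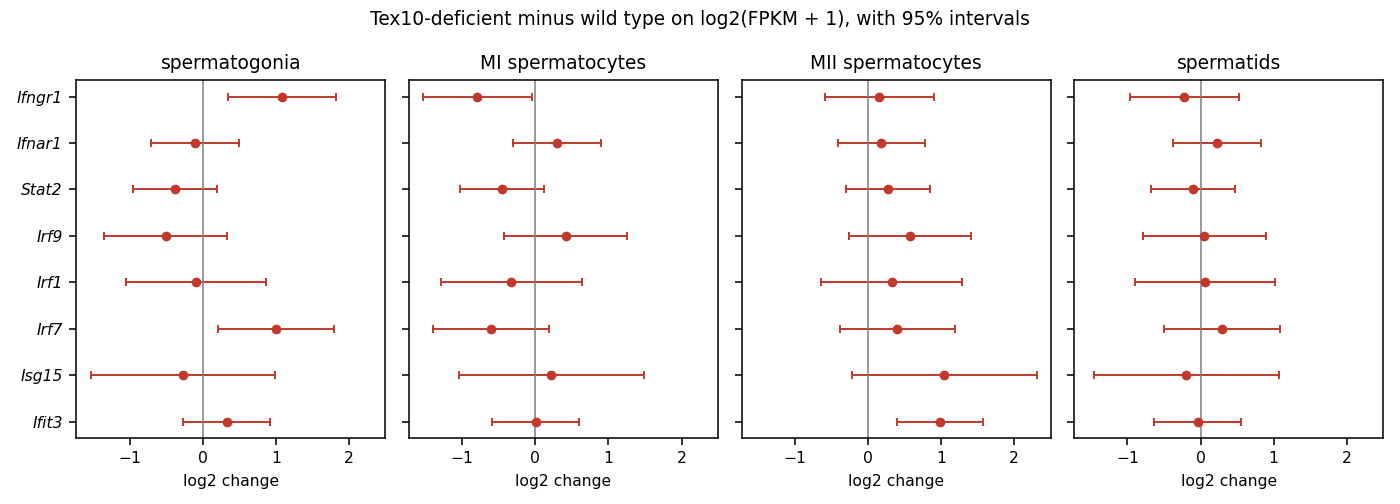
Log2 change, Tex10-deficient minus wild type on log2(FPKM + 1), of the 8 members in each fraction, with 95% intervals of the limma fit (2 libraries per group). All 8 points lie above 0 in the MII fraction, and Ifngr1 lies at 1.09 in spermatogonia and -0.79 in MI spermatocytes.

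A wider set of 102 genes of the pathway, sorted by role and without the 8 members, had 67 genes in the table. In spermatogonia 1 of 67 was called higher and 0 lower (background 0.0153% and 0.00%). This was Ifng, which encodes interferon gamma, at 7.17 and 4.75 FPKM in Tex10-deficient spermatogonia and 0.687 and 0.938 FPKM in wild-type spermatogonia (log2 change 1.92, SE 0.24, limma adjusted p = 0.010). It was listed at 0 in all other libraries, and these values entered the spread used by the test. Ifng met the filter of 1 FPKM in 2 libraries only through Tex10-deficient spermatogonia, the group where it was high. Its call is therefore not independent of the filter. The call was lost without wild-type spermatogonia replicate 2, and without either Tex10-deficient spermatogonia library Ifng no longer reached the level needed to be tested. Of the 6 lymphocyte markers, 1 was called higher in the same comparison, Cd3g of the T cell receptor complex, named after its values were seen (log2 change 2.27, SE 0.28, limma adjusted p = 0.010). The genotypes overlapped for Cd3e, Il2rb and Ccl5, the most abundant of these markers. The part of lymphocytes in the level of Ifng was not tested.

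Among the 14 interferon gamma targets, 0 were called in spermatogonia (background 0.0153%). Without overlap, 4 were higher and 0 lower, against 16.9% and 19.6% of all genes. Gbp9, a guanylate-binding protein named after its values were seen, had 8.03 and 6.51 FPKM in Tex10-deficient and 1.77 and 1.64 FPKM in wild-type spermatogonia (log2 change 1.61, SE 0.31, limma adjusted p = 0.10), and it was called with a pseudocount of 5, quantile normalization or array weights. The others were Igtp, an immunity-related GTPase, and, likewise named afterwards, Psmb8, a subunit of the immunoproteasome, and Gbp7. Of the 5 negative regulators, 2 were higher and 1 lower without overlap, against the same 16.9% and 19.6% of all genes, with a median log2 change of -0.08. Socs1, which blocks Janus kinases and was likewise named afterwards, had 5.06 and 6.31 FPKM in Tex10-deficient and 1.96 and 2.65 FPKM in wild-type spermatogonia (log2 change 1.02, SE 0.38, limma adjusted p = 0.61). Cish, another SOCS family member, had 13.5 and 8.98 FPKM in Tex10-deficient and 7.75 and 2.31 FPKM in wild-type spermatogonia. The lower gene was Ptpn2, a tyrosine phosphatase, at 35.3 and 32.5 FPKM in Tex10-deficient and 47.2 and 44.3 FPKM in wild-type spermatogonia. Over the 67 genes, 17 were higher and 5 lower without overlap, against 16.9% and 19.6% of all genes, and the median log2 change was 0.18, against -0.01 for all genes.

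In the Tex10-deficient MII fraction, 0 of 67 pathway genes were called (background 0.00763%), 14 were higher and 3 lower without overlap, against 17.3% and 18.0% of all genes, and 44 had a log2 change above 0, against 48.4%. The 14 are 20.9% of the set, a share near that of all genes. Ifnar2, the partner chain of Ifnar1, had 36.8 and 42.9 FPKM in Tex10-deficient and 23.3 and 19.3 FPKM in wild-type libraries (log2 change 0.88, SE 0.59, limma adjusted p = 0.59). Ifngr2, the partner chain of Ifngr1, had 30.3 and 32.1 FPKM in Tex10-deficient and 24.8 and 23.2 FPKM in wild-type libraries. Both receptor partners were thus higher without overlap, as was Lgals3bp, a secreted glycoprotein, at 77.3 and 99.8 FPKM in Tex10-deficient and 44.2 and 58.04 FPKM in wild-type libraries. Jak1, the kinase of both receptors, had 112 and 137 FPKM in Tex10-deficient and 116 and 77.5 FPKM in wild-type libraries, so the genotypes overlapped. Ifitm3, a membrane protein that blocks virus entry, was the most abundant gene of the set, at 1161 and 1038 FPKM in Tex10-deficient and 1276 and 484 FPKM in wild-type libraries.

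Among MI spermatocytes 0 of 67 were called (background 0.168%), with 5 higher and 11 lower without overlap, against 15.7% and 18.4% of all genes. Among spermatids 0 of 67 were called (background 0.00%), with 6 higher and 4 lower without overlap, against 11.7% and 15.9% of all genes. Eif2ak2, the kinase PKR that halts translation on sensing double-stranded RNA, was named after its values were seen. It had 5.05 and 6.12 FPKM in Tex10-deficient MI spermatocytes, against 11.99 and 14.4 FPKM in wild-type MI spermatocytes (log2 change -1.11, SE 0.32, limma adjusted p = 0.35).

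**Figure D4:**
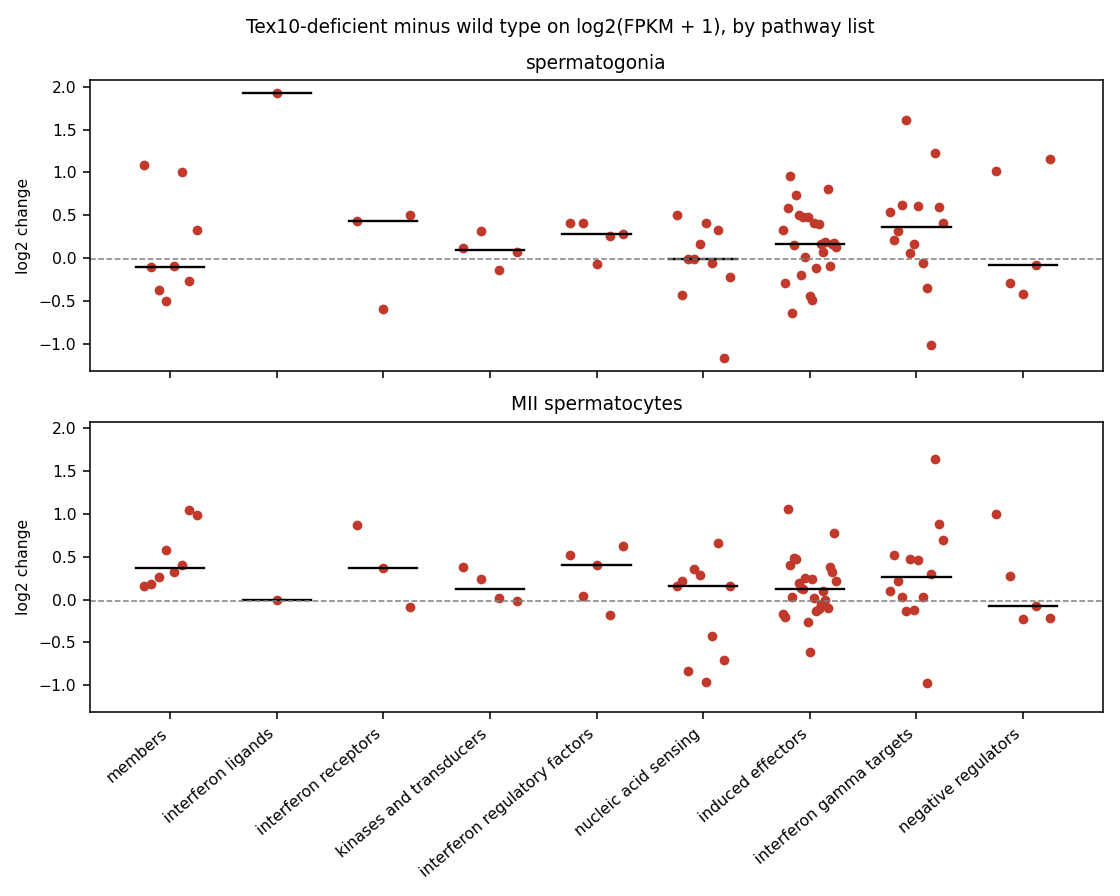
Log2 change, Tex10-deficient minus wild type, of the 8 members and of 67 further pathway genes by list, in spermatogonia (top) and in the MII fraction (bottom), with a point per gene, a bar at each list's median and a dashed line at the median of all genes. In spermatogonia Ifng stands highest at 1.92, and in the MII fraction the members have a median of 0.36.

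Most of the wider set was higher in the wild-type MII fraction than in MI spermatocytes or spermatids, as the 8 members were. Relative to spermatogonia, MI spermatocytes had 7 of 67 higher and 30 lower, where 26.3% and 25.7% of all genes were called. Relative to MI spermatocytes, the MII fraction had 51 higher and 4 lower, where 30.0% and 27.2% of all genes were called. Relative to the MII fraction, spermatids had 6 higher and 55 lower, where 38.8% and 35.0% of all genes were called. Of the 40 genes called lower in spermatids than in spermatogonia, 35 were also called higher in the MII fraction than in MI spermatocytes. The lists with the largest shares of rises in the MII fraction were the other receptors (3 of 3), interferon gamma targets (12 of 14) and induced effectors (20 of 25). The number called in MI spermatocytes relative to spermatogonia was 20 without wild-type MI replicate 2, 22 without wild-type spermatogonia replicate 2 and 24 without wild-type MI replicate 1, against 37 with all libraries.

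A few pathway genes ran against this course. Dhx58, which encodes the sensor regulator LGP2, had 12.3 and 16.2 FPKM in wild-type MI spermatocytes, against 0.316 and 0.552 FPKM in wild-type spermatogonia, and it had 18.6 and 13.7 FPKM in wild-type spermatids, against 1.43 and 3.63 FPKM in the wild-type MII fraction. Isg20, an exonuclease for RNA, had 64.3 and 54.3 FPKM in wild-type spermatids, against 6.77 and 5.64 FPKM in the wild-type MII fraction. Its Tex10-deficient spermatid level was 46.6 and 60.4 FPKM, so the genotypes overlapped. Herc6, the mouse ligase that joins ISG15 to proteins and was named after its values were seen, had 18.7 and 23.5 FPKM in wild-type spermatids, against 3.13 and 4.52 FPKM in the wild-type MII fraction. Isg15 itself had 0.304 and 0 FPKM in the same spermatids. Pias1, an inhibitor of STAT signalling, had 110.2 and 141 FPKM in wild-type spermatids, against 25.1 and 31.9 FPKM in the wild-type MII fraction. All 4 of these pathway genes, Dhx58, Isg20, Herc6 and Pias1, were called higher in spermatids than in the MII fraction (limma adjusted p from 2.1e-05 to 0.00027).

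**Figure D5:**
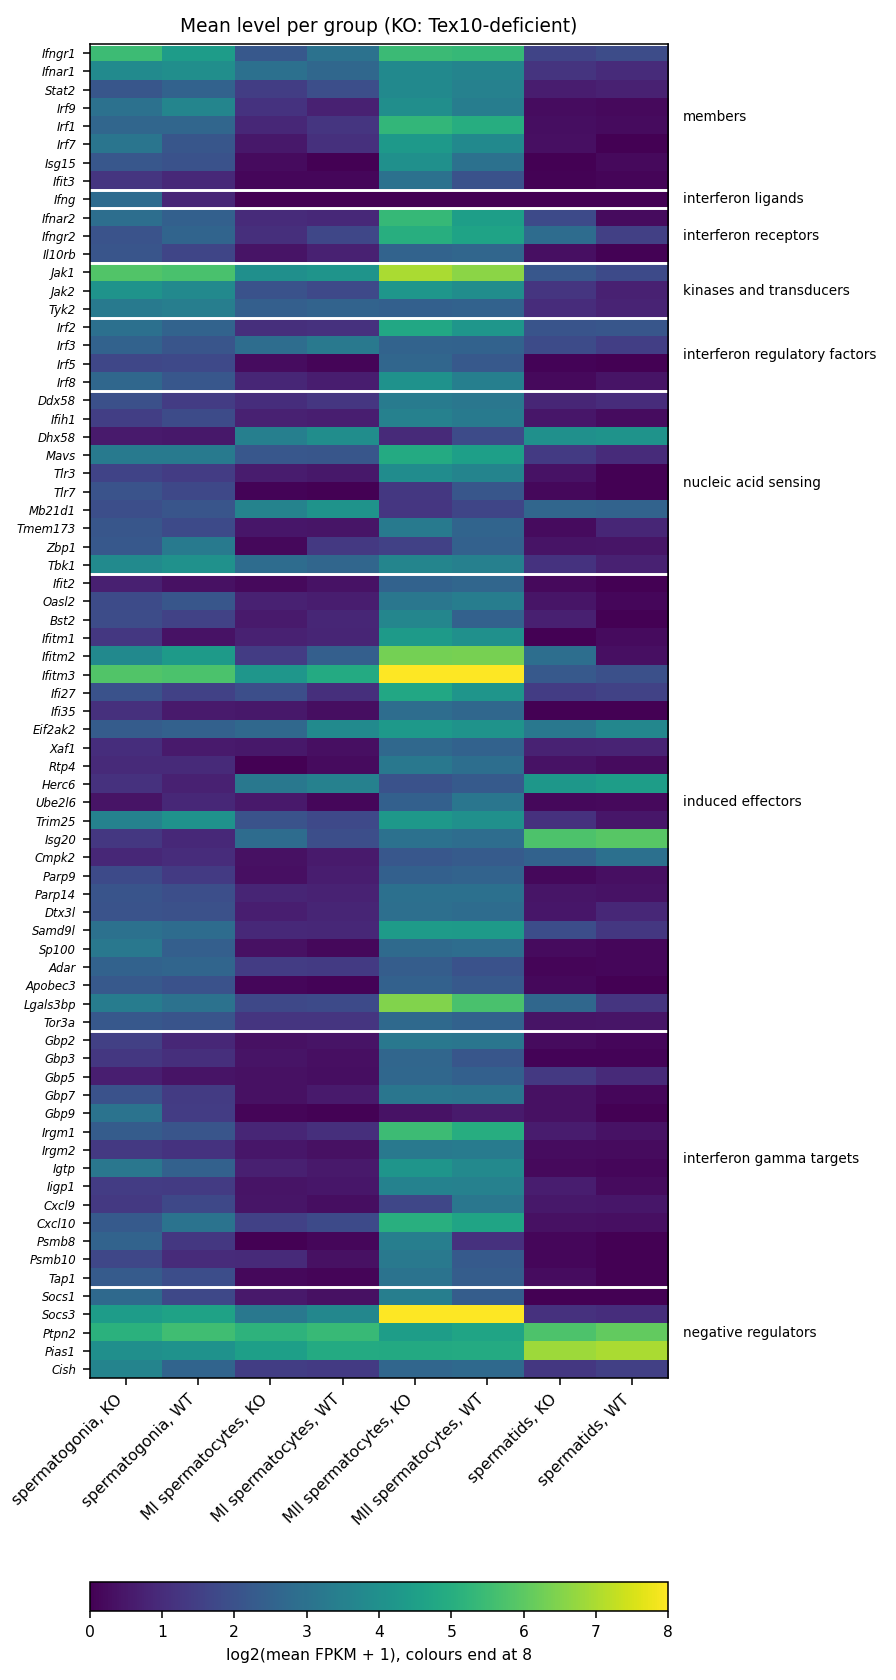
Mean level per group, as log2(mean FPKM + 1) with colours ending at 8, of the 8 members and further pathway genes, with Tex10-deficient (KO) left of wild type (WT) in each fraction. Most rows are bright in the MII fraction and dark in spermatids, and Dhx58, Herc6, Isg20 and Pias1 are brighter in spermatids than in the MII fraction.

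The 8 members resembled each other across libraries. Over 28 pairs of members the Pearson correlation of log2(FPKM + 1) in 16 libraries ran from 0.656 to 0.958, with a median of 0.889. This is a description, since the libraries fall into 4 cell types and share the differences between the fractions. By the same measure, the genes most like the receptor chain Ifngr1 were Wfs1 (0.985), Cnn2 (0.985) and Fnbp1 (0.980), and those most like Ifnar1 were Vps13d (0.994), Tmem87b (0.991) and Nr1d2 (0.990). Stat2 was most like Ndrg1 (0.984), Nt5dc3 (0.979) and Nhsl2 (0.978). Irf9 was most like Fam50a (0.984), Fbln1 (0.983) and Man2b1 (0.982). Irf1 was most like Igfbp3, Phldb1 and Rarres2, each at 0.988, and Irf7 was most like Cst3 (0.986), Ngfrap1 (0.979) and Smpd1 (0.977). The effector Isg15 was most like Praf2 (0.954), S1pr2 (0.951) and Sh3rf1 (0.951), and Ifit3 was most like Casq2 (0.984), Gpx3 (0.982) and Nfe2l3 (0.974). With marker sums over the same 16 libraries, the members correlated at 0.857 to 0.949 for myoid and endothelial, 0.381 to 0.820 for Leydig cell, 0.328 to 0.820 for Sertoli cell, 0.178 to 0.536 for macrophage and general immune and 0.033 to 0.455 for lymphocyte markers. For germ cell markers the range was 0.351 to 0.892 with spermatogonia, -0.923 to -0.484 with meiotic prophase, -0.898 to -0.656 with late spermatocyte and -0.827 to -0.223 with spermatid markers. The macrophage and general immune sum in these correlations included Aif1, which made up most of it in spermatids. Without Aif1 this sum was at most 34.8 FPKM in MI spermatocytes and spermatids. It was at least 252 FPKM in spermatogonia and the MII fraction, and no correlation was computed without Aif1.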

How the data were processed

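PolyA RNA of 16 libraries was sequenced. Per the submitters' processing notes, the tools were FastQC 0.10.1, Trim Galore 0.6.3 with cutadapt, STAR 2.7.6a and Cufflinks 2.2.1, with build mm10. The sources used here name no annotation or strand setting, so reads of overlapping or near-identical genes (Gbp and Ifitm families) may be shared. The deposited table holds FPKM values by the authors with 1 added, since its smallest value is 1; this 1 was subtracted, and 3.33% of values were then 0. Read depth is unknown and FPKM totals (187713 to 533859) are not a depth.

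Samples were grouped by title. From these values log2(FPKM + 1) was fitted for 8 groups together with limma 3.58.1 (R 4.3.3; trended empirical Bayes, 8 residual degrees of freedom) over genes at 1 FPKM or more in 2 or more libraries. This left 13099 genes, after 1 gene with a letter in a cell was left out. Sums and figures used Python 3.11.15, pandas 2.3.3 and matplotlib 3.10.9. Promoter windows came from RefSeq, build GRCm38.p6. The fit was also run on simulated data with the same spread for all genes and changes only in genes well above 0 FPKM. That run does not bear on members near 0 FPKM.

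The comparisons set Tex10-deficient against wild-type libraries per cell type, on average and by the difference between cell types, and also compared wild-type cell types by pairs, at a Benjamini-Hochberg adjusted p under 0.05. Members and lists were chosen with earlier results of these data known. Genes named were the members, Tex10, per member the 3 genes most like it, per pathway list those called by genotype and up to 4 of the most abundant, and up to 3 of the most abundant per marker list; exceptions are marked. Alternatives were other pseudocounts, filters, quantile normalization, median-of-ratios scaling, no trend, array weights, a replicate block, only the libraries compared, the cell type field, no MII libraries, and each library left out. Some genes of the lists are counted but not reported by name here.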

Additional observations from a re-analysis of the deposited data

How the results depend on the processing

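The counts of members called in the genotype comparisons were 0 under every alternative and every library left out, except under 2 settings. Quantile normalization called 1 member, Ifit3, in the MII fraction. It moved the median log2 change of all genes in that comparison to 0.10, against -0.02. Grouping by the cell type field, which disagrees with the titles, called 5 members in MI spermatocytes, 7 in the MII fraction and 7 in the difference between cell types. Direction was compared only for member changes without overlap between genotypes and for the average of Ifit3. Grouping by the field reversed 8 of these log2 changes: Stat2 was at 0.39 in spermatogonia, Stat2 at 1.12, Irf7 at 2.22 and Ifngr1 at 2.43 in MI spermatocytes, and Ifit3 at -1.90, Stat2 at -2.43, Irf9 at -2.93 and Isg15 at -2.93 in the MII fraction. It mixes fractions by construction.

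In the wild type, the members called between MI spermatocytes and spermatogonia numbered 3 with a pseudocount of 5 and 2 by the field. Between the MII fraction and spermatogonia they numbered 3 with a pseudocount of 0.1, with quantile normalization or with only the libraries compared, and 0 by the field. Between spermatids and MI spermatocytes they numbered 2 with a pseudocount of 5 and 0 by the field. Grouping by the field moved 0 wild-type libraries, so wild-type log2 changes stayed the same and only the spread estimated over all groups differed. The cause under the other settings was not tested. Leaving out 1 library at a time, the counts were 2 to 7 for MI spermatocytes against spermatogonia, 3 to 5 for the MII fraction against spermatogonia, 2 to 4 for spermatids against MI spermatocytes, 7 to 8 for the MII fraction against MI spermatocytes, 6 to 8 for spermatids against spermatogonia, and 8 for spermatids against the MII fraction. Where a group was left with 1 library, it was assumed to vary like the other groups. Without the MII libraries no value exists for comparisons with that fraction.

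With the replicate number as a block, 0 members were called by genotype, and 5 members, against 4 without it, between spermatids and MI spermatocytes. The other 5 wild-type counts were the same. The deviations of same-numbered libraries correlated at 0.203 in spermatogonia, 0.00383 in MI spermatocytes, 0.308 in the MII fraction and -0.127 in spermatids, with 2 pairs each, and no label says that a number marks a shared animal or day.

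Over all genes, the genotype calls were 2 in spermatogonia (0 to 35 over the libraries left out), 22 in MI spermatocytes (0 to 47), 1 in the MII fraction (1 to 1253) and 0 in spermatids (0 to 1). Ifng in spermatogonia was not called with a pseudocount of 0.1, with only the libraries compared, without the MII libraries or by the field (limma adjusted p from 0.0031 to 0.82 over its alternatives). With 2 libraries a group and unknown depth, members near 0 FPKM in MI spermatocytes and spermatids cannot be resolved.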
